A study of Mus musculus with 8 samples.

Results

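The 4 genes Kcnc2, Trpv6, Wfdc18 and Bhmt lie on mouse chromosomes 10, 6, 11 and 13, away from Tnnt2 on chromosome 1, and were picked because they separated homozygous Tnnt2 ΔK210 knock-in hearts (KI) from wild-type hearts (WT). They are 4 of 15744 genes tested and of 22909 genes named on the array, and 6 probes measured them. The choice rested on the measured genotype differences, so these differences are given as a description, with no test. At birth 6 of the 15744 genes (0.0381%) passed an adjusted p under 0.05 (limma), 4 of them with lower values in KI (0.0254%). Of these 6, 3 lay off chromosome 1. At 1 week 8 genes (0.0508%) passed, 3 of them with lower values in KI (0.0191%). Of these 8, 3 lay off chromosome 1, among them the slow myosin gene Myh7, which is not one of the 4. The counts rest on few arrays: with the scanner-file samples 0 genes passed at birth (limma, 677 with an unadjusted p under 0.05) and 1 at 1 week, and 0 passed at birth without either WT birth array or without KI birth replicate 2. Kcnc2 was the last gene inside the threshold at both ages. Just outside it at birth lay Bhmt at -1.26, and just outside it at 1 week lay Sypl2 at +1.73 and Dnajc5b at -1.04, all as log2 KI minus WT.

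The study modelled neonatal dilated cardiomyopathy with mice that carry a deletion of lysine 210 in cardiac troponin T, the thin-filament protein encoded by Tnnt2. RNA of the heart ventricles was hybridised to 8 one-colour Cy3 arrays, 2 each for KI at birth (0 day), WT at birth, KI at 1 week and WT at 1 week. Per the labels, KI mice had the deletion on both alleles, 3 ventricular samples of a group were combined and 100 ng of RNA was labelled. The labels do not give whether both arrays of a group held 1 pool or separate ones, so each error covers the spread of 2 arrays, perhaps a technical one. The 8 arrays shared 1 slide. Birth arrays filled row 1 and 1-week arrays row 2, and at birth WT lay in columns 1 and 2 and KI in columns 3 and 4, so slide position cannot be told apart from age, nor from genotype at birth. The 10 cardiomyocyte markers were well above background on every array. The knock-in deletes a single codon, and Tnnt2 itself had levels of 8.19 and 8.11 in KI and 8.16 and 8.30 in WT at birth, and 8.21 and 8.20 in KI and 8.33 and 7.77 in WT at 1 week, so its level does not check the genotype labels.

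At 1 week the deposited records disagreed on which array held which sample. The 4 arrays are called A to D by slide column. The value table gave B and C as KI and A and D as WT, whereas the scanner files gave C and D as KI and A and B as WT. The values below follow the value table. The scanner-file record is given beside the 1-week genotype comparisons of the 4 genes and beside some of the other 1-week results. Which record is right was not tested. Array D stood apart, with a 75th-percentile signal of 342 against 440 to 523 on the other 7 arrays, and KI birth array 1 carried the scanner software's mark for evaluation while the other 7 were in range.

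The 4 genes have unrelated roles. Kcnc2 encodes Kv3.2, a Shaw-type voltage-gated potassium channel known for letting fast-spiking neurons repolarise quickly. Trpv6 encodes an epithelial calcium channel that takes up calcium in gut, placenta and other epithelia under vitamin D control. Wfdc18 encodes a small secreted protein with a whey acidic protein (WAP) four-disulfide core, a fold shared by protease inhibitors. Bhmt encodes betaine-homocysteine methyltransferase, which remakes methionine from homocysteine with betaine as methyl donor and is best known from liver and kidney.

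The promoters of the 4 genes are shown because the genes were grouped by a shared direction at birth, and each window can be read beside the levels that follow. Each runs 5′ to 3′ from 250 bases before to 50 bases after the gene's start on its own strand, from RefSeq on build GRCm38.p6. Kcnc2 is at chr10:112269767-112270066 on the plus strand, Trpv6 at chr6:41636356-41636655 on the minus strand, Wfdc18 at chr11:83708754-83709053 on the plus strand and Bhmt at chr13:93637709-93638008 on the minus strand. RefSeq gave 4 windows for Kcnc2, of which the one with the lowest start coordinate is shown. Capitals mark matches to 4 promoter motifs searched on both strands. The TATA box was searched as TATAAA. For the GC box, a site of Sp family factors, the letters were GGGCGG. The CCAAT box was searched by the letters of its name. The E-box, bound by basic helix-loop-helix factors, was searched as CANNTG.
Kcnc2: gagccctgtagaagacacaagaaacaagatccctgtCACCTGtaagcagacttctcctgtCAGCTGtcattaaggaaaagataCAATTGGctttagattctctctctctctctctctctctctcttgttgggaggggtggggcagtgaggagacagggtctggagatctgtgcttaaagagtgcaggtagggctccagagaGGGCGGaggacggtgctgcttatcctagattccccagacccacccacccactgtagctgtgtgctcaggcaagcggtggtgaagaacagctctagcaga
Trpv6: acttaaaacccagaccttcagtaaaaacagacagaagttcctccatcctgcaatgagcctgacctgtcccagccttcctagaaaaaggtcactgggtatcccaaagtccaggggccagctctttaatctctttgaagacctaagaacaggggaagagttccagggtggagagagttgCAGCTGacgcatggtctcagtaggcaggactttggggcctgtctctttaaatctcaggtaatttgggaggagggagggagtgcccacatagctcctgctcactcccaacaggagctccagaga
Wfdc18: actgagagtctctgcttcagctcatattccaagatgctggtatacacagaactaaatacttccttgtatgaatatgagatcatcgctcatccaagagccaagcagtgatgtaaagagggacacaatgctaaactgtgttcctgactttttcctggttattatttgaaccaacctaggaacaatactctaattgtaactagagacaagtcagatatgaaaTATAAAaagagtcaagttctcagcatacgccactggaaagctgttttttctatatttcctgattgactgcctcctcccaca
Bhmt: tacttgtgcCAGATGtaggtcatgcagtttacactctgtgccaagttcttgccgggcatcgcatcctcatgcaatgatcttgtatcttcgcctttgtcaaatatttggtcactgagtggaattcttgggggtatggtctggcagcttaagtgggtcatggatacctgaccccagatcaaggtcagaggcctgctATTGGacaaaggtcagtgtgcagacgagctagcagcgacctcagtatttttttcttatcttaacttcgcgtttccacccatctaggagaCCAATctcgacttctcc

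No motif was found in all 4 windows. Wfdc18 alone held TATAAA, which began 31 bases before the start and which 13.6% of the 32851 promoter windows of this length held. Kcnc2 alone held GGGCGG (35.7% of all windows), at 49 bases before the start. CCAAT or its reverse complement (37.4% of all windows) lay in Kcnc2, where it overlapped an E-box, and in Bhmt at 56 bases before and 34 bases after the start. An E-box (72.3% of all windows) was read in Kcnc2 at 3 positions, in Trpv6 at 1 and in Bhmt at 1. A match describes letters in the window and shows no binding.

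**Figure D1:**
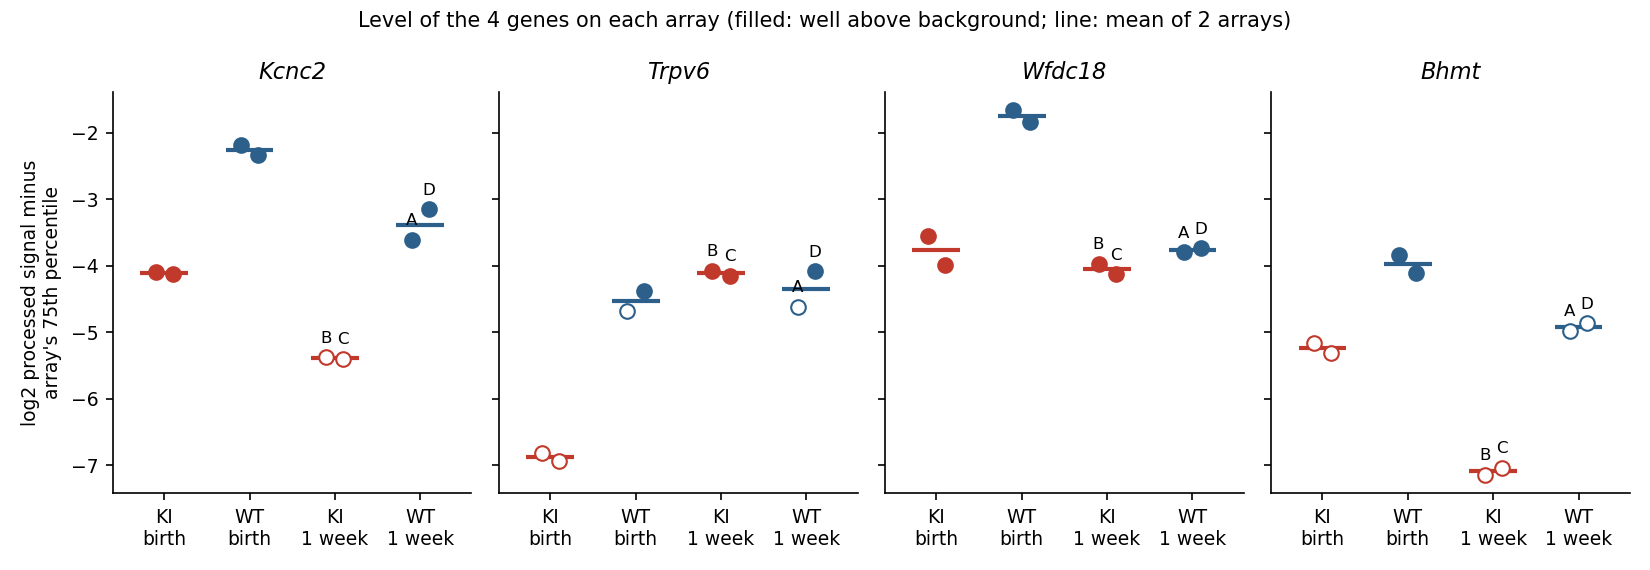
Level of each gene's brightest probe on each array, as log2 processed signal minus the array's 75th percentile, in KI and WT at birth and at 1 week by the value table. Points are arrays (letters A to D at 1 week), lines are means of 2 arrays, and filled points were well above background. At birth both KI points lie below both WT points in all 4 panels.

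In the values that follow, signal means the scanner's background-corrected processed signal in linear intensity units, and level means its log2 minus the 75th percentile of that array's probes. A probe was called well above background by the scanner software's own flag. Where a group was not well above background on either array, the fold is a lower bound, taken from the brighter group's mean against, per array, the higher of the dim probe's own signal and the lowest signal well above background. Differences carry limma's standard error (SE), which pools the spread of 4 groups of 2 arrays.

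Kcnc2 was lower in KI at both ages by the value table, on its probe A_51_P507333 (NM_001025581). At birth its signal was 26.8 and 26.6 in KI against 97.2 and 89.9 in WT. All 4 of these arrays were well above background and the groups were far from overlapping. The level averaged -4.11 ± 0.024 in KI and -2.26 ± 0.11 in WT (SD, n = 2 each), a difference of -1.86 ± 0.17 (SE), or 3.63-fold lower in KI. Under the scanner-file record the same birth difference carried an SE of 0.79, and that of Bhmt one of 0.85 in place of 0.14, because the pooled spread takes in the 1-week groups. At 1 week its signal was 12.6 and 11.05 in KI, where neither array was well above background, against 41.7 and 38.6 in WT, where both were. Again the groups did not overlap. The level averaged -5.39 ± 0.020 in KI and -3.38 ± 0.33 in WT (SD, n = 2 each), a difference of -2.01 ± 0.17 (SE), which is at least 2.98-fold lower in KI. With the scanner-file samples the 1-week level was -4.28 ± 1.59 in KI and -4.50 ± 1.25 in WT, and the groups overlapped, since each then held 1 bright and 1 dim array.

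The raw spots behind these values were dim. Kcnc2 had raw median spot intensities of 68 and 69 in KI and 123 and 135 in WT at birth, and of 57.5 and 60.5 in KI and 83 and 84 in WT at 1 week. On 1-week arrays B and C, 95% of the negative-control spots lay below 52.8 and 53, so the KI spots sat just above the negative controls. At 1 week minus birth Kcnc2 differed by -1.28 in KI (at least 1.79-fold lower at 1 week) and by -1.13 in WT (2.18-fold lower). The 1-week and birth arrays did not overlap in either genotype. By the scanner-file record the age differences were -0.16 in KI, where the arrays overlapped, and -2.24 in WT. A second Kcnc2 probe, A_52_P273559, had signals of 2.60 to 6.36 and was not well above background on any array, so the difference rests on 1 probe.

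**Figure D2:**
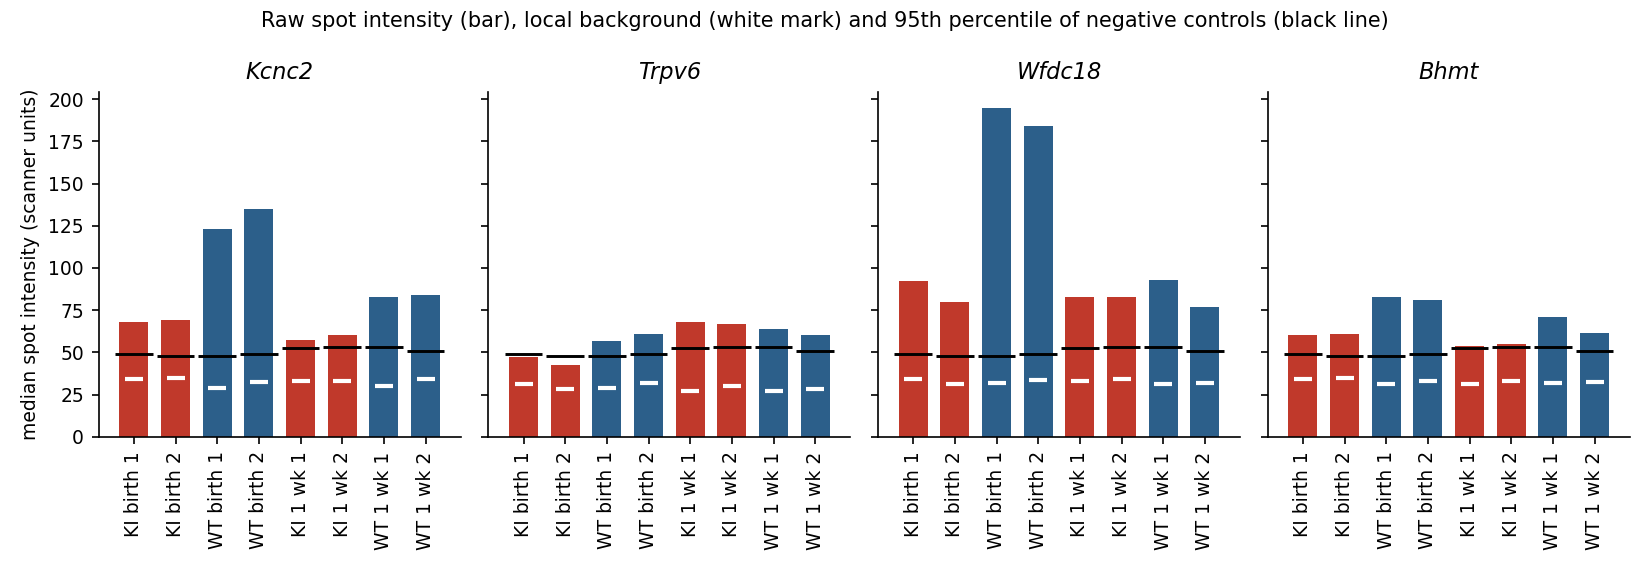
Raw median spot intensity (bars, scanner units) of the same probes on each array, in KI and WT at birth and at 1 week by the value table, with the local background (white marks) and the 95th percentile of the negative-control spots (black lines). The KI spots of Trpv6 at birth, at 47 and 42.5, lie below that percentile, and the WT spots of Wfdc18 at birth, at 194.5 and 184, lie far above it.

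Trpv6 was low in KI at birth, and at 1 week KI and WT overlapped. Its single probe A_55_P2111444 (NM_022413) had a signal of 4.08 and 3.81 in KI at birth, with neither array well above background, against 17.1 and 21.8 in WT at birth, with 1 of 2 arrays well above background. The groups did not overlap. The level averaged -6.87 ± 0.085 in KI and -4.53 ± 0.21 in WT (SD, n = 2 each), a difference of -2.34 ± 0.20 (SE), which is at least 1.55-fold lower in KI. Raw intensities at birth were 47 and 42.5 in KI, against 57 and 61 in WT, and 95% of negative-control spots lay below 49 and 48 on the KI arrays.

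At 1 week Trpv6 had a signal of 30.9 and 26.3 in KI, both well above background, against 20.8 and 20.2 in WT, where 1 of 2 arrays was. On the level scale, which allows for the lower overall signal of array D, the groups overlapped: -4.08 and -4.15 in KI against -4.62 and -4.09 in WT. The difference was +0.24 ± 0.20 (SE) by the value table and +0.23 with the scanner-file samples. Within KI, Trpv6 was higher at 1 week than at birth by 2.76, which is at least 2.07-fold, under both records. Within WT the 1-week and birth levels overlapped, at a difference of +0.18.

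Wfdc18 was lower in KI at birth and close to WT at 1 week, and it alone of the 4 was well above background on all 8 arrays. Its single probe A_55_P2483194 (NM_007969) had a signal of 39.1 and 29.4 in KI at birth against 139 and 126 in WT at birth. Both WT values lay far above both KI values. The level averaged -3.77 ± 0.31 in KI and -1.75 ± 0.13 in WT (SD, n = 2 each), a difference of -2.02 ± 0.17 (SE), or 4.05-fold lower in KI. At 1 week its signal was 33.3 and 26.7 in KI against 36.6 and 25.6 in WT. The levels, -3.97 and -4.13 in KI against -3.80 and -3.74 in WT, did not overlap, but the difference of -0.28 ± 0.17 (SE) was small. Under the scanner-file record it was -0.047 and the groups overlapped.

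The 2 WT birth arrays held the highest Wfdc18 values of the 8. Within WT, Wfdc18 was 4.05-fold lower at 1 week than at birth, a difference of -2.02 with no overlap (-2.14 with the scanner-file samples). Within KI the difference was -0.28 and the 1-week and birth arrays overlapped, as they did with the scanner-file samples (-0.17). Raw intensities were 92.5 and 80 in KI and 194.5 and 184 in WT at birth, and 83 and 83 in KI and 93 and 77 in WT at 1 week. The 95th percentile of negative-control spots was at most 53 on any array, so these spots stood clear of the negative controls.

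Bhmt was lower in KI at both ages by the value table. Its probe A_55_P2714597 (NM_016668) had a signal of 12.8 and 11.8 in KI at birth, not well above background, against 30.6 and 26.2 in WT at birth, both well above it. The groups did not overlap, and the difference in level was -1.26 ± 0.14 (SE), at least 2.28-fold lower in KI. At 1 week its signal was 3.69 and 3.55 in KI against 16.2 and 11.7 in WT, and none of these 4 arrays was well above background. The levels, -7.15 and -7.04 in KI against -4.98 and -4.87 in WT, did not overlap and differed by -2.17 ± 0.14 (SE). No fold is given there, since neither group was well above background on either array.

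Bhmt entered the tests only through its WT birth arrays, just as Trpv6 entered only through its KI 1-week arrays. With the scanner-file samples the 1-week level of Bhmt was -5.95 ± 1.54 in KI and -6.06 ± 1.53 in WT (SD, n = 2 each) and the groups overlapped. Within WT, Bhmt was at least 1.72-fold lower at 1 week than at birth, and at least 1.98-fold with the scanner-file samples. Within KI, where neither age was well above background, its levels differed by -1.86 with no overlap, but by -0.72 with overlap under the scanner-file record. Raw intensities were 60 and 61 in KI and 82.5 and 81 in WT at birth, and 53.5 and 55 in KI and 71 and 61.5 in WT at 1 week, against negative-control 95th percentiles of 52.8 and 53 on the KI arrays. A second Bhmt probe, A_55_P2103963, was not well above background on any array, at signals of 3.62 to 14.4. It differed by +0.49 at birth and +0.055 at 1 week with overlapping groups, so it did not show the difference of the first probe.

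All 4 genes had both KI arrays below both WT arrays at birth, as did 15.2% of all genes tested. At 1 week 3 of the 4 did (Kcnc2, Wfdc18 and Bhmt), as did 18% of all genes, and none of the 4 did with the scanner-file samples, where 19.7% of all genes did. The 3 were lower without overlap at both ages, as were 3.11% of all genes. Kcnc2 and Bhmt had all 4 KI arrays below all 4 WT arrays, as did 0.648% of all genes. These counts follow from how the genes were chosen. In the age direction, 3 of the 4 were lower at 1 week without overlap in WT (33.6% of all genes), and in KI 2 were lower (32.1%) and 1 was higher (28%). By the scanner-file record 3 were again lower in WT (35.5%), while in KI none was lower (32.2%), 1 was higher (26.6%) and 3 overlapped.

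**Figure D3:**
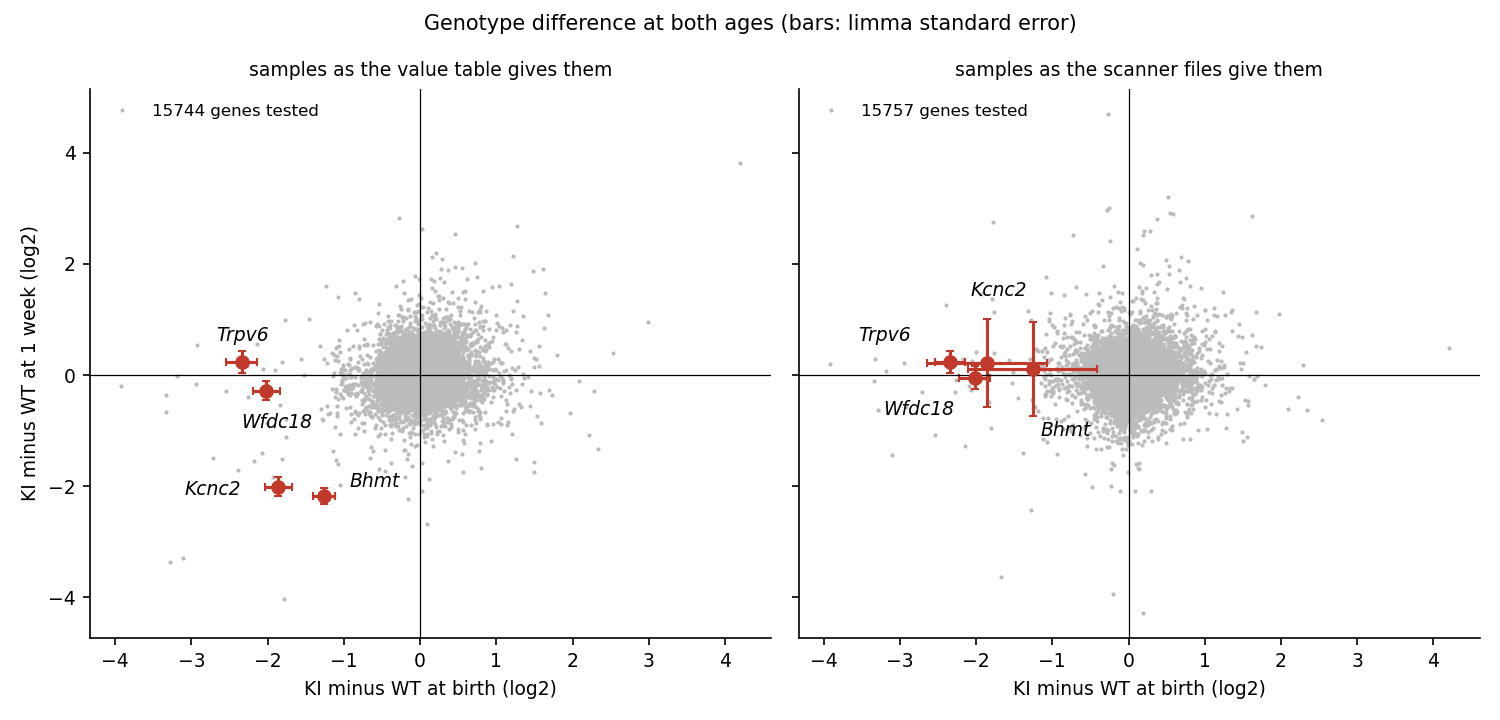
KI minus WT in log2 at birth (horizontal axis) against 1 week (vertical axis) for all genes tested (grey) and the 4 genes (red, with limma SE), with the samples of the value table on the left and of the scanner files on the right. On the left Kcnc2 and Bhmt lie near -2 on the vertical axis, and on the right all 4 lie near 0 on it.

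Kcnc2 and Bhmt followed each other across the arrays, with Pearson r = 0.97 over the 8 arrays. Each was the other's closest match among the genes ranked. This ranking, used for every closest match named below, left out predicted, clone and accession names and olfactory receptor, vomeronasal receptor and immunoglobulin genes. Their levels were highest on the WT birth arrays and lowest on 1-week arrays B and C. Wfdc18 had r = 0.84 with Kcnc2 and 0.76 with Bhmt, while Trpv6 had r = 0.044 with Kcnc2, 0.16 with Wfdc18 and -0.17 with Bhmt. The 8 points share slide, age and genotype groups, so these are descriptions. After Bhmt, the genes most like Kcnc2 were Idh2, the mitochondrial NADP isocitrate dehydrogenase, and Togaram2 (r = 0.94 each). For Bhmt they were Ric8a, a chaperone of G protein alpha subunits, at r = 0.95, and Idh2 at 0.94. Idh2 varied far less, between levels of 7.87 and 8.18, while Bhmt varied between -7.15 and -3.84.

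The genes most like Trpv6 were the homeobox gene Hoxc5 (r = 0.96), the B-cell and myeloid surface receptor Cd180 (0.95) and the angiopoietin-like gene Angptl1 (0.95). Each of these was lowest on the 2 KI birth arrays, with Cd180 at levels of -3.18 and -2.92 there and between -2.08 and -1.45 on the other 6 arrays. For Wfdc18 they were Tal2, a basic helix-loop-helix factor, at r = 0.97, Aebp2, a subunit of Polycomb complexes, at 0.96, and Nadsyn1, which makes NAD, at 0.95. Tal2 was highest on the WT birth arrays, at levels of -4.36 and -4.44, and was well above background on only 2 arrays.

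Genes next to the 4 on their chromosomes were read for a genotype difference along the region. Of the 80 neighbours, 10 tested genes on each side of each gene, none passed an adjusted p under 0.05 (limma) between KI and WT at birth or at 1 week. Over all genes tested only 0.0381% passed at birth and 0.0508% at 1 week. With so few calls, a count of 0 among 80 cannot show whether a difference extended along the region. An unadjusted p under 0.05 was reached by 8 of the 80 at birth and 5 of the 80 at 1 week. The shares over all genes tested were 4.71% at birth and 7.06% at 1 week. None of the 79 tested with the scanner-file samples passed either, and 9 of the 79 at each age had an unadjusted p under 0.05. Of all 15757 genes tested with those samples, 677 at birth and 1556 at 1 week had one. KI was lower without overlap at both ages in 4 of the 80 (5%), against 3.11% of all genes, namely Ptprr and Kcnmb4 near Kcnc2 and Prss37 and Zyx near Trpv6. These 4 were named after their values were seen. Kcnmb4, a beta subunit of the BK potassium channel, differed by -0.53 ± 0.18 (SE) at birth and -0.30 ± 0.18 at 1 week.

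Next to Kcnc2, Glipr1 differed between KI and WT by +0.089 at birth and -0.32 at 1 week, and Atxn7l3b by +0.080 and -0.084. Next to Trpv6, the Eph receptor gene Ephb6 differed by +0.17 and -0.083, and Llcfc1 by +0.43 and -0.17. Next to Bhmt, Jmy, an actin nucleator, differed by +0.047 and -0.011, and the lysosomal sulfatase gene Arsb by +0.028 and +0.34. None of these 6 flanking genes passed the test in either genotype comparison.

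**Figure D4:**
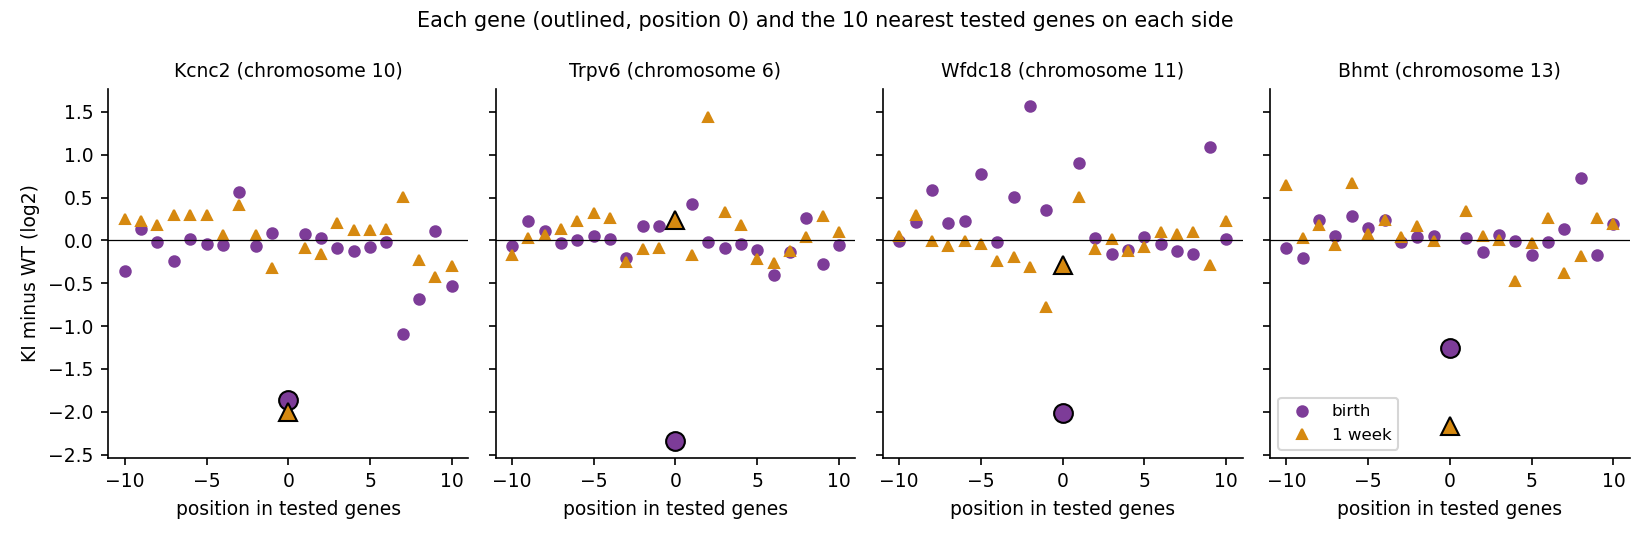
KI minus WT in log2 for the 10 tested genes on each side of each gene, in RefSeq gene order, at birth and at 1 week, with the gene itself outlined in the centre. Neighbours of Bhmt stay between -0.47 and 0.73, while Bhmt itself lies at -1.26 and -2.17.

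Wfdc18 has relatives on either side, the WAP-domain genes Wfdc17 and Wfdc21. Wfdc17 differed between KI and WT by +0.35 at birth and -0.78 at 1 week, and Wfdc21 by +0.90 and +0.51, and neither passed the test (limma). At 1 week relative to birth Wfdc21 fell by 2.76 in KI (adjusted p = 0.00348, limma) and fell by 2.37 in WT (adjusted p = 0.00458). It was well above background on 1 of 2 KI arrays and on neither WT array at 1 week, so in WT it was at least 3.41-fold lower. The sizes were smaller under other background treatments, at -1.23 in KI and -0.62 in WT with normexp. Wfdc17 rose in WT by 1.49 (adjusted p = 0.00344, and 0.00367 to 0.0738 over 8 alternatives, highest with the scanner-file samples) and differed by +0.36 in KI (adjusted p = 0.277). Wfdc21 thus fell in both genotypes, where Wfdc18 was lower at 1 week without overlap in WT alone. The difference between the genotypes in these age effects was not tested.

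Genes related to the 4 by function were followed in 4 lists of 70 genes, of which 45 were tested. None passed an adjusted p under 0.05 (limma) between KI and WT at birth, where 7 had an unadjusted p under 0.05, or at 1 week, where 4 did. Over all genes tested, 4.71% had an unadjusted p under 0.05 at birth and 7.06% at 1 week. None passed with the scanner-file samples either. At 1 week relative to birth, 5 of the 45 rose and 7 fell in KI, where 5.86% of all genes rose and 4.75% fell (10.6% in all). In WT 9 rose and 7 fell, where 10% of all genes rose and 8.96% fell (19% in all). These counts were, with the scanner-file samples, 5 higher and 8 lower in KI and 5 higher and 6 lower in WT.

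Among the 11 tested Shaw-type and related delayed rectifier channels, 3 rose and none fell at 1 week relative to birth in each genotype. They included the Kv1 beta subunit gene Kcnab1 and Kcna1, which encodes Kv1.1 and whose call in KI (adjusted p = 0.0468, limma, and 0.0380 to 0.0977 over 8 alternatives) was lost under 5 of the 8, among them the scanner-file samples. In WT at birth Kcna1 was not well above background on either array. Kcnab1 rose by 1.16 in KI (adjusted p = 0.0170, limma) and by 1.39 in WT (adjusted p = 0.00697). The list's median genotype difference was 0.031 at birth and -0.18 at 1 week, where all genes had medians of 0.0015 and 0.026. Among the other Shaw-type genes, Kcnc1 differed between KI and WT by -0.72 ± 0.27 (SE) at birth and +0.063 ± 0.27 at 1 week, and Kcnc4 by +0.031 and -0.28.

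Of the 10 tested genes of TRPV channels and transcellular calcium transport, 1 rose and 2 fell with age in KI, and 4 rose and 1 fell in WT. The vitamin D receptor gene Vdr fell by 1.68 in KI (adjusted p = 0.00781, limma) and fell by 1.53 in WT (adjusted p = 0.00833). Slc8a1, the cardiac sodium-calcium exchanger, fell by 0.72 in KI (adjusted p = 0.0472, limma, and 0.0221 to 0.0941 over 8 alternatives, lost under 2 of them), and Trpv4, a mechano- and osmosensitive channel, rose by 1.08 in WT (adjusted p = 0.0213, and 0.00815 to 0.114 over 8 alternatives, highest with the scanner-file samples). Trpv5, the kidney relative of Trpv6, was not well above background on any array. The list's median genotype difference was 0.058 at birth and -0.017 at 1 week.

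Of the 10 tested WAP-core genes, 1 rose and 2 fell with age in KI, and 2 rose and 1 fell in WT. Besides Wfdc17 and Wfdc21, Wfdc1 rose by 1.53 in KI (adjusted p = 0.00945, limma) and by 1.56 in WT (adjusted p = 0.00687). Slpi, the secretory leukocyte protease inhibitor, fell by 1.51 in KI (adjusted p = 0.0109, limma, and 0.00466 to 0.141 over 8 alternatives, lost with the mean over probes). The list's median genotype difference was 0.33 at birth and 0.064 at 1 week.

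Of the 14 tested genes of betaine, methionine and homocysteine metabolism, 3 fell and none rose with age in KI, and 5 fell and none rose in WT. The serine hydroxymethyltransferase genes fell in both genotypes: Shmt2 fell by 0.95 in KI (adjusted p = 0.0189, limma) and fell by 1.04 in WT (adjusted p = 0.0101), and Shmt1 fell by 1.35 in KI (adjusted p = 0.0362) and fell by 1.31 in WT (adjusted p = 0.0286). Over 8 alternatives the adjusted p of Shmt2 (limma) ran from 0.00866 to 0.370 in KI and from 0.00394 to 0.223 in WT, and of these 8 only the mean over probes lost the call in each genotype. That of Shmt1 ran from 0.0119 to 0.0778 in KI and from 0.0149 to 0.0767 in WT, with 1 and 3 calls lost. Gnmt, glycine N-methyltransferase, fell by 0.98 in KI (adjusted p = 0.0272, limma, and 0.0241 to 0.0999 over 8 alternatives, highest with the scanner-file samples), and Aldh7a1, which oxidises betaine aldehyde, fell by 0.65 in WT (adjusted p = 0.0229, and 0.0170 to 0.0859 over 8 alternatives, lost under 2). Bhmt2, a paralog of Bhmt, and Dmgdh, which breaks down the dimethylglycine that BHMT makes, were not well above background on any array. The median genotype difference was -0.061 at birth and 0.096 at 1 week.

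Because the 4 genes are known from other tissues, markers of those tissues were read on the same arrays, and their part in the results was not tested. Fewer cells of a type and less RNA per cell cannot be told apart in such samples. The sums are of processed signals that were not scaled for the lower overall signal of array D, whereas the differences are in scaled levels. The summed signal of the 6 tested liver markers, of 10 listed, was 2408 to 2576 in KI and 2517 to 2978 in WT at birth, and 1749 to 2220 in KI and 1773 to 2081 in WT at 1 week. By the scanner-file record the 1-week sums were 1749 to 1773 in KI and 2081 to 2220 in WT, with no overlap. KI minus WT in level was below 0 for 5 of the 6 at each age (medians -0.28 at birth and -0.22 at 1 week), and for 2 of 6 at 1 week by the scanner-file record (median +0.23). None of the 6 was lower in KI without overlap at both ages (3.11% of all genes). Of the other 4, Apoa1 and Cps1 were not well above background on any array, and Afp was on 1 and Fgb on 2. Alb, the liver's main secreted protein, was singled out after its values were seen: its level was -2.25 and -4.38 in KI and -0.56 and -2.50 in WT at birth, and -7.29 and -7.13 in KI and -4.47 and -1.88 in WT at 1 week. Across the 8 arrays Alb had r = 0.93 with Bhmt and 0.90 with Kcnc2. The other tested liver markers had lower r with Bhmt. These were 0.71 for Ttr, 0.57 for Serpina1b, 0.55 for Ahsg, 0.43 for Apoa2 and 0.023 for Apoc3. KI minus WT in Alb at 1 week was -4.03 by the value table and +1.38 by the scanner-file record. Its differences of -1.79 ± 1.04 (SE) at birth and -4.03 ± 1.04 at 1 week did not pass the test (adjusted p = 1.00 and 0.513, limma).

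The 5 tested kidney markers, of 10 listed, summed to 219 to 224 in KI and 159 to 198 in WT at birth, and to 204 to 205 in KI and 168 to 200 in WT at 1 week. On the KI birth arrays all 5 were well above background, but only 2 to 3 were on the WT birth arrays. At 1 week 3 to 4 were in KI and 2 to 3 in WT, so part of these sums lay near background. By the scanner-file record the 1-week sums overlapped, at 168 to 205 in KI and 200 to 204 in WT. The 6 tested epithelial markers, of 10, summed to 2610 to 2670 in KI and 2205 to 2297 in WT at birth, and to 1942 to 2199 in KI and 2023 to 2787 in WT at 1 week. By the scanner-file record the 1-week epithelial sums were 2023 to 2199 in KI and 1942 to 2787 in WT. The 8 tested neuronal markers, of 10, summed to 24008 to 31300 in KI and 27368 to 31554 in WT at birth, and to 33040 to 34550 in KI and 26589 to 30922 in WT at 1 week. For these neuronal markers the scanner-file record gave 1-week sums of 26589 to 33040 in KI and 30922 to 34550 in WT. Their levels gave a median KI minus WT of 0.022 at birth, with 5 of 8 above 0, and of -0.29 at 1 week, with 2 of 8 above 0, while the 1-week median was +0.29 by the scanner-file record. Of the 8, 2 were lower in KI without overlap at both ages (3.11% of all genes), Gap43 at -1.11 and -0.94 and Stmn2 at -0.47 and -0.51, and so were 3 of the 10 cardiomyocyte markers, namely Myh6, Myl2 and Myl3. None of these 5, named after their values were seen, was lower at both ages without overlap by the scanner-file record. None of the 35 tested marker genes of the 5 tissues passed the test between KI and WT (limma). Of the 35, 2 at birth and 7 at 1 week had an unadjusted p under 0.05. Over all genes tested, 4.71% at birth and 7.06% at 1 week had one.

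**Figure D5:**
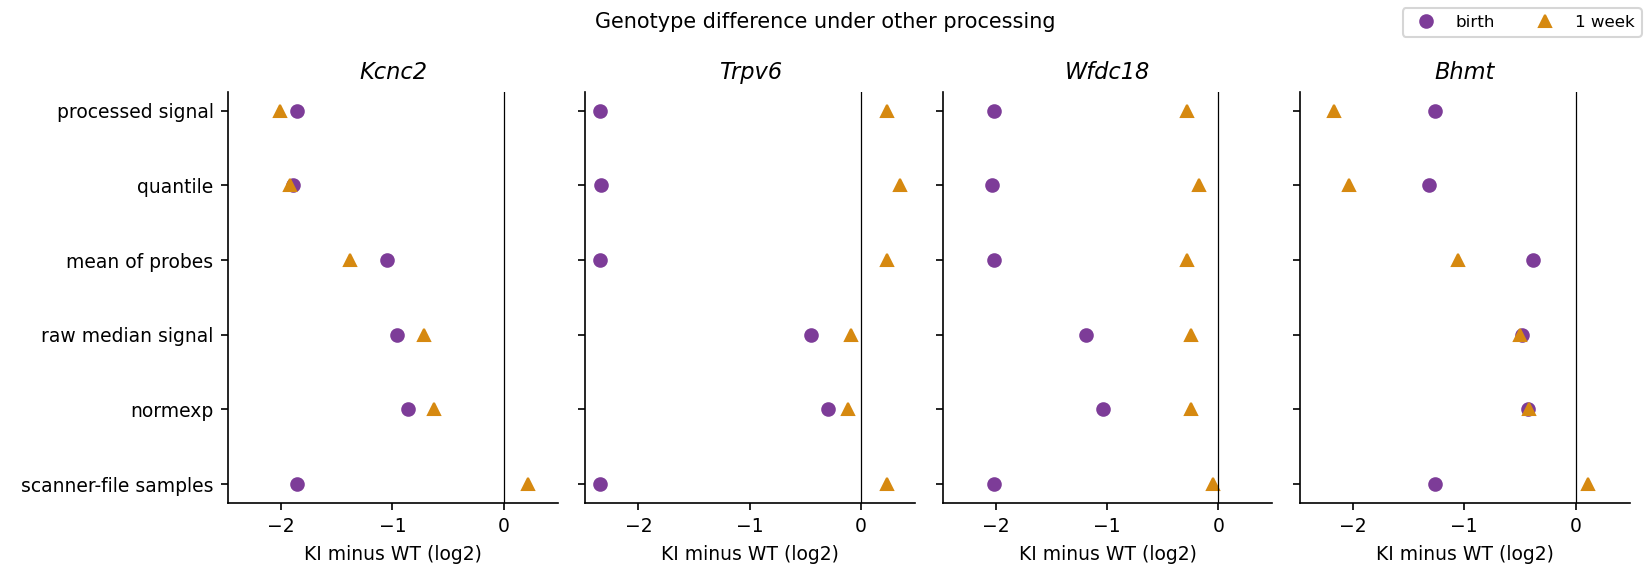
KI minus WT in log2 for the 4 genes at birth and at 1 week under 6 ways of processing, from the processed signal (top) to the scanner-file samples (bottom). Raw median signal and normexp give smaller differences than the processed signal, for example -0.86 with normexp against -1.86 for Kcnc2 at birth.

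The differences were smaller under other treatments of the background. On the raw median signal, with no subtraction, KI minus WT at birth was -0.96 for Kcnc2, -0.45 for Trpv6, -1.18 for Wfdc18 and -0.48 for Bhmt. With normexp, which models the background, it was -0.86, -0.30, -1.04 and -0.43 in the same order of genes. At 1 week Kcnc2 differed by -0.71 on the raw median signal and -0.62 with normexp, and Bhmt by -0.50 and -0.41. KI was lower in each of these values, and each was smaller in size than the one from the processed signal.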

How the data were processed

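RNA of pooled ventricle samples was read on 8 one-colour arrays. The deposited scanner files held each spot's processed signal, an intensity from which the authors' Feature Extraction run had taken the background within each array. They also held raw median intensities and flags coded 0 and 1 (other). Feature Extraction was version 11.0.1.1 and the build mm9 per the file headers, and version 9.1 per the submitters' processing notes. The deposited value table held the same intensity averaged per probe, and each column equalled 1 scanner file (relative tolerance 0.0001). From these, log2 levels minus each array's 75th percentile were computed, and each gene kept its brightest probe. Probes were named through RefSeq (GRCm38.p6), which gave 22909 genes for 32988 of 56605 probes. A gene was tested if well above background on both arrays of any group, with limma 3.58.1 in R 4.3.3 on all 8 arrays in 4 groups and Benjamini-Hochberg adjustment at 0.05.

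The members, lists and neighbours were chosen with earlier results of these data known. Members were given no p for age either, although one had been planned, since the same arrays chose them. Named genes were the 4, the 3 most alike by Pearson r, the nearest neighbour on each side, and list genes past the test; some of these are not reported here. The alternatives were the scanner-file samples, raw median signal, normexp with offset 50 (on the raw median signal, as the files held no mean signal), quantile scaling, the mean over probes, no filter, the replicate block, only the arrays compared, and each array left out. The fits were checked on simulated data. The number of arrays limits the precision.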

Additional observations from a re-analysis of the deposited data

How the results depend on the processing

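Against 6 genes between KI and WT at birth and 8 at 1 week, the counts were 0 and 1 with the scanner-file samples, 3 and 4 on the raw median signal, 0 and 3 without the filter on dim probes, and 0 and 0 with only the arrays compared (2 residual degrees of freedom). At 1 week they were 4 with normexp and 3 with the mean over probes. With the replicate block 0 genes passed at birth. Beside these counts of 0 (limma), an unadjusted p under 0.05 was reached by 677 genes with the scanner-file samples, 1079 without the filter, 948 at birth and 913 at 1 week with only the arrays compared, and 1070 with the block. Same-numbered arrays of KI and WT deviated together (correlation 0.286 at birth and 0.165 at 1 week over 15744 genes), but 2 pairs sharing only a number do not show pairing. With 1 array left out the counts ran from 0 to 7 at birth (0 on leaving out either WT birth array or the second KI birth array, with 558 to 721 at an unadjusted p under 0.05) and from 2 to 22 at 1 week, with 22 without WT 1-week replicate 1 (array A), 16 without WT 1-week replicate 2 (array D) and 2 without KI 1-week replicate 2 (array C). The age counts, 2988 in WT and 1670 in KI, were 1868 and 1084 without the filter, 1454 in WT with only the arrays compared, and 1193 to 4180 and 560 to 2022 with 1 array left out.

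With the scanner-file samples KI minus WT at 1 week turned to +0.22 for Kcnc2 and +0.11 for Bhmt and was -0.047 for Wfdc18. With normexp and on the raw median signal it was -0.86 and -0.96 at birth and -0.62 and -0.71 at 1 week for Kcnc2, -0.30 and -0.45 at birth and -0.12 and -0.089 at 1 week for Trpv6, -1.04 and -1.18 at birth for Wfdc18, and -0.43 and -0.48 at birth and -0.41 and -0.50 at 1 week for Bhmt. With the mean over probes it was -1.05 and -1.38 for Kcnc2 and -0.38 and -1.06 for Bhmt, at birth and at 1 week, and with quantile scaling -2.03 for Bhmt at 1 week. With 1 array left out it ran from -2.24 to -1.78 for Kcnc2 and from -0.031 to 0.50 for Trpv6 at 1 week, and from -2.23 to -1.80 for Wfdc18 and from -1.39 to -1.13 for Bhmt at birth. The cause of these shifts was not tested. Of the 21 age calls of list genes that are named, the block lost 1 and quantile scaling 1, normexp and raw median signal 2 each, the scanner-file samples 4, only the arrays compared 4, the mean over probes 5, and no filter 6, and leaving out 1 array lost 53 of 168 cases, with no change of direction. Signals near background, 1 probe per gene and 2 arrays a group limit all of this.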
